A study of Mus musculus with 12 samples.

Results

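Retinaldehyde dehydrogenases, alcohol dehydrogenases and retinoid binding proteins make, carry and deliver retinoic acid. The 9 genes described here are Aldh1a1, Aldh1a2, Aldh1a3, Aldh1a7, Adh1, Adh7, Rbp4, Crabp1 and Crabp2. They were found by gene symbol in the annotation of the arrays, which gave 12 of the 45037 probe sets without controls, and 9 of the 20670 genes these probe sets name. The family was chosen by its role in retinoid metabolism and by measured values of these 12 arrays, with no record of which comparison counted, so every comparison below is treated as used in the choice. The values of its members, p-values included, are therefore a description and support nothing beyond themselves.

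Retinol, the alcohol form of vitamin A, circulates bound to Rbp4 and is oxidised to retinaldehyde by alcohol and retinol dehydrogenases. Retinaldehyde dehydrogenases of the Aldh1a group then oxidise retinaldehyde irreversibly to retinoic acid. Crabp1 and Crabp2 bind retinoic acid inside the cell, and Crabp2 passes it to the retinoic acid receptors in the nucleus. In fat tissue of mice this pathway is known for retinaldehyde and retinoic acid acting on fat cell formation, and Rbp4 is also secreted by mature fat cells.

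The 12 Affymetrix arrays measured total RNA of mouse cells. 3T3-L1 is a line of preadipocytes, and 10T1/2 is a line of mesenchymal stem cells that can become fat, bone, cartilage or muscle cells. All cells were transfected with siRNA on day -5 and day 0. Arrays labelled si-Setdb1, for the histone H3K9 methyltransferase Setdb1, were set against arrays of the negative control siRNA, si-Ctr, of the same line, time and experiment. These pairs are 10T1/2 after 48 hr in differentiation medium with 0.25 µM dexamethasone, 10T1/2 before dexamethasone (0 hr), 3T3-L1 after 36 hr in that medium (experiment A), and 3T3-L1 at 0 hr in experiments A and B. Experiment B also holds 1 array labelled si-Mbd1, for a methyl-CpG binding protein, and 1 labelled si-Mcaf1, for the Setdb1 partner now named Atf7ip. Both are titled 0 hr, although another label gives 36 hr, and the titles were followed. Of the 10 groups, 8 hold 1 array, and only si-Setdb1 and si-Ctr in 3T3-L1 at 0 hr hold 2. The labels do not say that the arrays of a group came from separate cultures beyond the experiment letters, so a p-value here reflects array-to-array spread that may be technical in part. The arrays measure bulk RNA, in which fewer cells of a type and less RNA per cell cannot be told apart.

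Values called signals are the deposited intensities on a linear scale, and differences are on a log2(intensity + 0.8) scale after quantile normalisation, where fold changes of dim genes come out too small. These log2 values were fitted with limma over 12402 genes with a signal of at least 7.69 on average (the 40th percentile), and a gene passed at a Benjamini-Hochberg adjusted p under 0.05. The 3 probe sets of the targeted gene disagreed. The brightest Setdb1 probe set differed by 0.24 ± 0.15 (SE, limma, adjusted p = 0.383) between arrays labelled si-Setdb1 and si-Ctr. A dim one was lower on the array labelled si-Setdb1 of all 5 pairs, with signals of 0.4, 0.6, 0.4, 1.6 and 9.9 against 1.6, 2.8, 6.5, 4.2 and 24.4, and the other dim one was higher in all 5, with 14, 7.3, 22.1, 15.4 and 22 against 7.2, 6.8, 7, 6 and 11.7. Because they do not settle the check, the words "labelled si-Setdb1" are kept throughout. Atf7ip had a signal of 154.5 on the array labelled si-Mcaf1 and 159.6 on its si-Ctr array, so this check did not show a clear fall. The brightest Setdb1 probe set read 270.9 and 144.8 on these 2 arrays. Between arrays labelled si-Setdb1 and si-Ctr, Atf7ip was higher by 1.66 ± 0.11 (SE, 5 pairs, limma, adjusted p = 0.0192). Mbd1 had a signal of 144 on the array labelled si-Mbd1 and 306.2 on si-Ctr. The median signal was 14.9 to 18 on the 4 arrays of experiment B and 11.2 to 12.1 on the other 8. Preadipocyte and fibroblast markers had a summed signal of 20587.3 to 31305.5, with the largest signals from Vim and Col1a2, although Cd34 was under the filter. The preadipocyte marker Dlk1 differed between the lines, at 25.5 to 98.4 on the 10T1/2 arrays and 2725.2 to 7602.2 on the 3T3-L1 arrays. All 4 endothelial and all 3 measured liver markers were under the filter (summed signals of 11.1 to 27.4 and 1.7 to 16.1). Of the epithelial markers 2 of 5 were over it (summed signal 38.7 to 75.9, with Cdh1, Krt8 and Krt18 under it), of the macrophage or blood markers 3 of 5 (35.1 to 83.8, with Ptprc and Itgam under it) and of the skeletal muscle markers 2 of 4 (24.6 to 61.8, with Myod1 and Myog under it).

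Of the 9 genes, 7 have a promoter in the RefSeq tables of mouse build GRCm38.p6, and 4 of these windows are shown because their genes carry the results below. Aldh1a1 and Aldh1a7 lie on chromosome 19 with no protein-coding gene between them, as Adh7 and Adh1 do on chromosome 3. Each window holds the 250 bases before the annotated start, 5′ to 3′. Capitals in the first pair mark the longest run that both windows share, and capitals in the second pair mark matches of the motifs searched. In order, the windows are chr19:20601718-20601967 (+ strand), chr19:20727557-20727806 (- strand), chr3:138277335-138277584 (+ strand) and chr3:138217523-138217772 (+ strand).
Aldh1a1: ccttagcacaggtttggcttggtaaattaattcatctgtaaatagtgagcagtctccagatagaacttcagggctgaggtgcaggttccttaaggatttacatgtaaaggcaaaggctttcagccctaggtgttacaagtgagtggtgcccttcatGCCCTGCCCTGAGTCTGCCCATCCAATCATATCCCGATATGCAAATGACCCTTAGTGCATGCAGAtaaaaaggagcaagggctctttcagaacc
Aldh1a7: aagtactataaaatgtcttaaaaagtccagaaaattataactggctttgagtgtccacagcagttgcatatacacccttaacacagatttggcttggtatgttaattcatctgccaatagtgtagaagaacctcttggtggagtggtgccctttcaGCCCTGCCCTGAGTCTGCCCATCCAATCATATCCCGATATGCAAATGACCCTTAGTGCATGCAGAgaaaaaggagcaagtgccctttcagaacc
Adh1: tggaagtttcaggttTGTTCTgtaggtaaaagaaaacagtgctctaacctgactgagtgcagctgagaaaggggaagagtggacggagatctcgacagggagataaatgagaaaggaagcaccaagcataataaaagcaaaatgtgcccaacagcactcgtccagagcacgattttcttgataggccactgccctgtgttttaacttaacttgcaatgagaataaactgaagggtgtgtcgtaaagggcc
Adh7: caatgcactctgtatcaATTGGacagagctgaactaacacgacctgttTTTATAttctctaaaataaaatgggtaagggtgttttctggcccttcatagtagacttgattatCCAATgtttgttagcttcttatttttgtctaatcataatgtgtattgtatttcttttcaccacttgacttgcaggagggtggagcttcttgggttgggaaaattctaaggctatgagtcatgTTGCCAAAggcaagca
The windows of Aldh1a1 and Aldh1a7 share an unbroken run of 65 bases at the same place in both, 94 to 30 bases before the start, and are identical at 176 of 232 aligned bases (75.9%). A second RefSeq window of Aldh1a1, for another start, shares at most 8 bases in a row with Aldh1a7. The Aldh1a1 window shown was picked for its longer shared run. Adh1 and Adh7 share at most 8 bases in a row, at 60.1% identity of the aligned bases.

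A set of 7 motifs was searched on both strands, and shares are of all 32851 promoter windows of the same length. The glucocorticoid receptor half-site AGAACA is in 16.1% of windows and the full element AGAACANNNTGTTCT, which contains it, in 0.00913%. The nuclear receptor half-site AGGTCA is in 14%, and the direct repeat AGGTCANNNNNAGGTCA, which contains it, in 0.00913%. The C/EBP site TTGCNNAA is in 9.56%, the TATA box TATAAA in 12.4% and the CCAAT box CCAAT in 33.8%. Adh1 has 1 match, AGAACA on the reverse strand 235 to 230 bases before the start. Adh7 has a match of TTGCNNAA 16 to 9 bases before the start, one of TATAAA 202 to 197 bases before it, and CCAAT at 233 to 229 and 138 to 134 bases. The shared run of Aldh1a1 and Aldh1a7 holds CCAAT 72 to 68 bases before the start, and Aldh1a7 has further matches of CCAAT at 137 to 133 bases and of TATAAA at 244 to 239 bases. The Aldh1a1 window that is not shown has a match of TTGCNNAA 13 to 6 bases before its start. A match is a description of letters and not evidence of binding.

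Of the 9 genes, 5 had an average signal over the filter: Aldh1a1, Aldh1a7, Adh1, Adh7 and Crabp2. The other 4, Aldh1a2, Aldh1a3, Rbp4 and Crabp1, were dim, and their 6 probe sets read 0.2 to 19.1 over all arrays. A gene passes this filter more easily when it is bright in 1 group, and Aldh1a1 was at or above the filter level on 8 arrays and under it on 4.

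**Figure D1:**
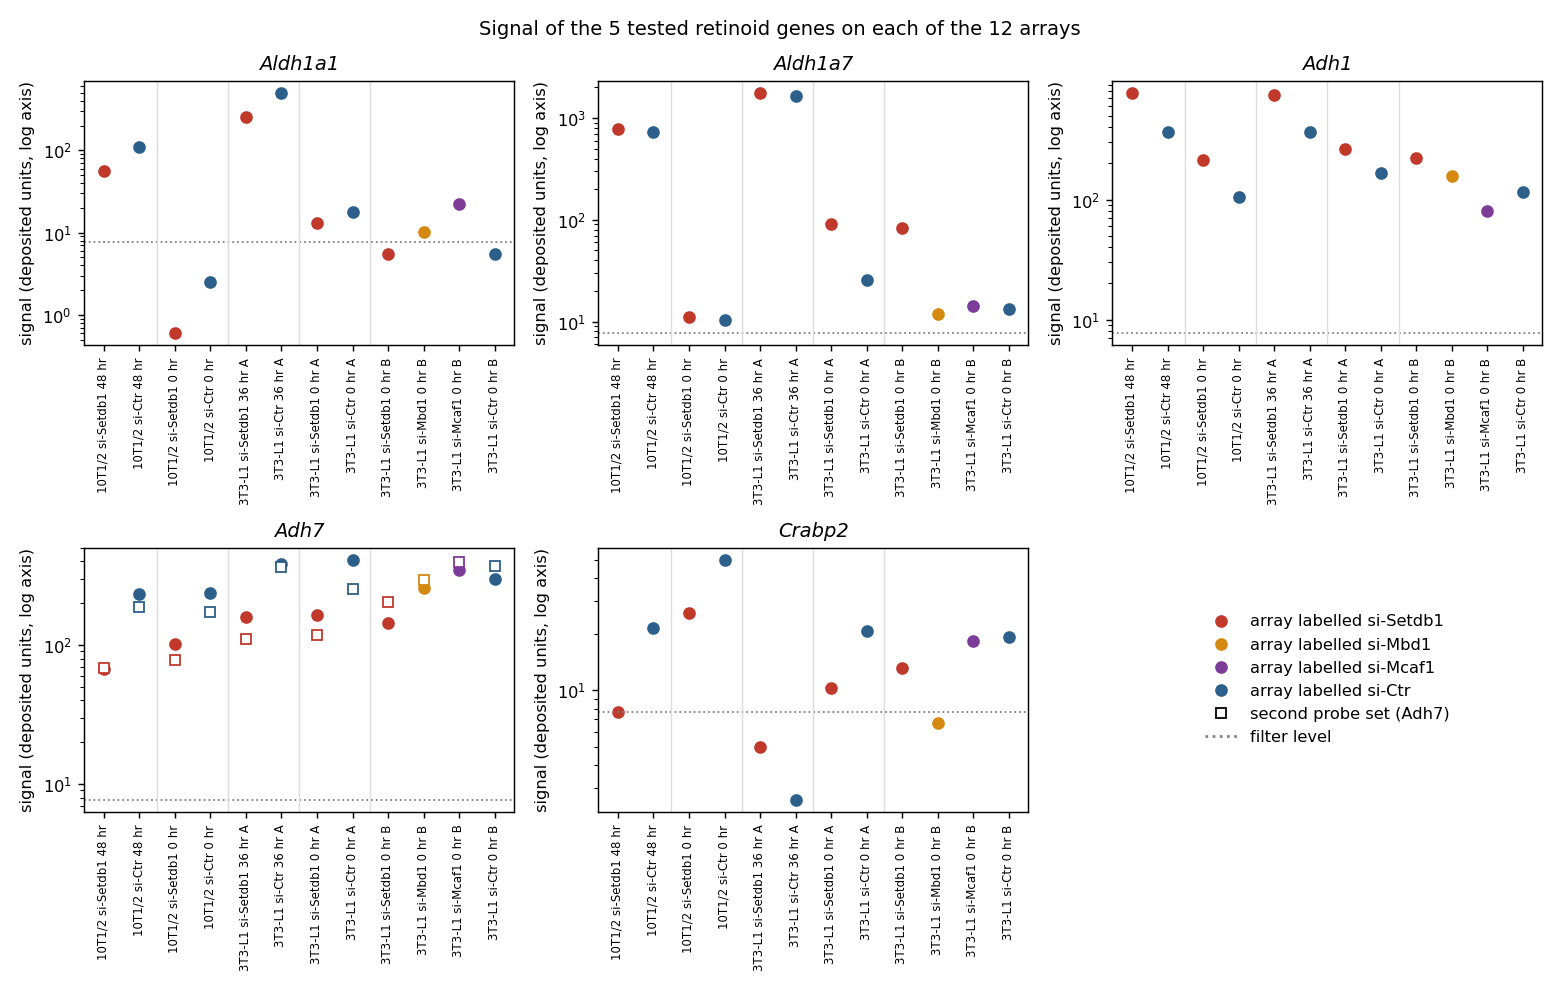
Deposited signal (log axis) of the 5 tested retinoid genes on each of the 12 arrays, in pairs of line, time and experiment with arrays labelled si-Setdb1 left of si-Ctr; open squares are the second Adh7 probe set and the dotted line is the filter level of 7.69. Adh1 is higher and Adh7 lower on the array labelled si-Setdb1 of all 5 pairs, and Aldh1a1 and Aldh1a7 stand highest on the 4 arrays after dexamethasone medium.

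The alcohol dehydrogenases Adh1 and Adh7 differed in opposite directions between arrays labelled si-Setdb1 and si-Ctr. Adh1, a class I enzyme that oxidises ethanol and retinol, was higher in 5 of 5 pairs, by 1.93-fold. Adh7, a class IV enzyme that is an efficient retinol dehydrogenase of stomach and other epithelia, was lower in 5 of 5 pairs, by 2.44-fold. Of the 5 tested genes these 2 passed, beside 1.1% of all genes tested (0.443% higher and 0.653% lower), and since the family was chosen with this contrast known nothing is read from that share.

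Adh1 had signals of 773.4, 212.8, 746.2, 264.5 and 222.1 on the arrays labelled si-Setdb1 of 10T1/2 at 48 hr and 0 hr, 3T3-L1 at 36 hr, and 3T3-L1 at 0 hr in experiments A and B. The si-Ctr arrays of the same pairs read 362.7, 105.9, 369.6, 167.2 and 115. Every array labelled si-Setdb1 was above its own si-Ctr array, while the ranges of both sets overlapped. By pair the log2 difference was 1.05, 0.97, 0.97, 0.68 and 1.07, a narrow range with the smallest value in 3T3-L1 at 0 hr, experiment A. Its mean was 0.95 ± 0.09 (SE, 5 pairs, limma, adjusted p = 0.0322), the 11th smallest p of the fit.

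Adh7 had signals of 67, 102.2, 159.4, 164.1 and 144.6 on the arrays labelled si-Setdb1, in the same order, and of 233.9, 238.6, 381, 411.6 and 301.1 on the si-Ctr arrays. On this brightest probe set of Adh7 the highest array labelled si-Setdb1 was below the lowest si-Ctr array. The share of all genes with such a gap was not counted, so nothing is read from it. By pair the log2 difference was -1.68, -1.15, -1.21, -1.29 and -1.11, with a mean of -1.29 ± 0.11 (SE, 5 pairs, limma, adjusted p = 0.0298), the 5th smallest p of the fit. The second Adh7 probe set was also lower in all 5 pairs, by 0.88 to 1.65 on the log2 scale, but its sets overlapped. It read 205.3 on the array labelled si-Setdb1 of 3T3-L1 at 0 hr, experiment B, above 188.3 and 172.1 on si-Ctr of 10T1/2. In a fit of all 45037 probe sets its difference was -1.19 ± 0.16 (SE, limma, adjusted p = 0.270), so it did not pass there. The 2 probe sets correlated over the 12 arrays with r = 0.885, a description over arrays of shared experiments.

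Neither alcohol dehydrogenase call held when a pair was left out. Without each of the 5 pairs in turn the adjusted p (limma) was 0.0722 to 0.121 for Adh1 and 0.0715 to 0.121 for Adh7, while the difference stayed at 0.92 to 1.02 for Adh1 and -1.33 to -1.19 for Adh7.

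**Figure D2:**
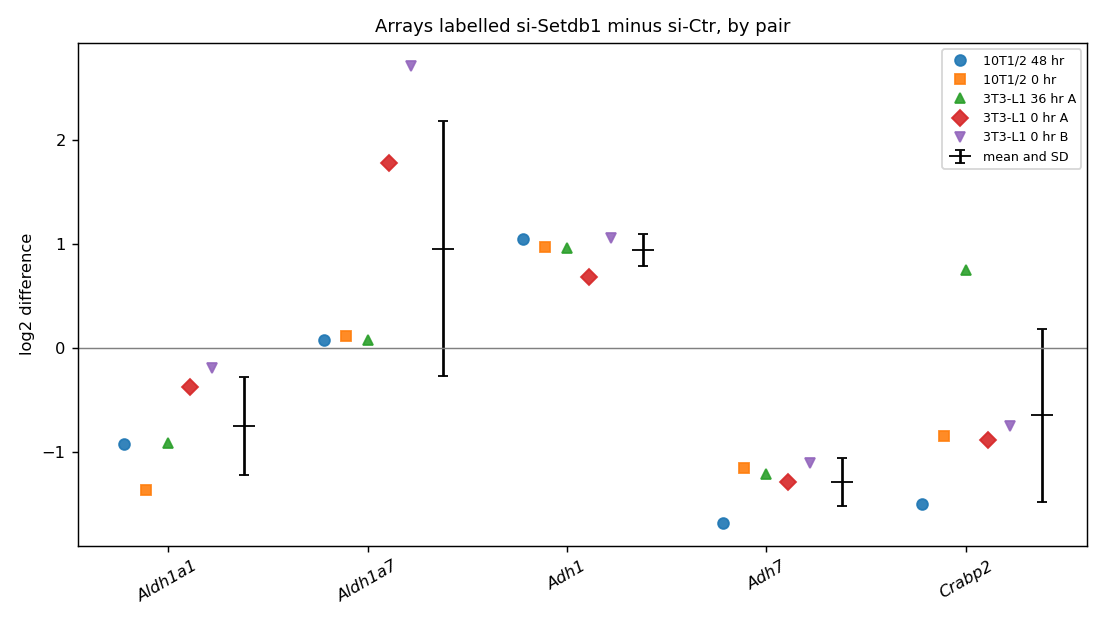
Log2 difference, arrays labelled si-Setdb1 minus si-Ctr, for each of the 5 pairs (points) with the mean and SD (bar), for the 5 tested retinoid genes. Adh1 lies between 0.68 and 1.07 and Adh7 between -1.68 and -1.11, whereas Aldh1a7 lies near 0 in 3 pairs and at 1.78 and 2.72 in the 3T3-L1 pairs at 0 hr.

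Neither tested gene of the Aldh1a group passed on the arrays labelled si-Setdb1. Aldh1a1, the main retinaldehyde dehydrogenase of mouse fat cells, had signals of 56, 0.6, 256.2, 13 and 5.5 on these arrays, against 110.2, 2.5, 497.3, 17.7 and 5.5 on si-Ctr. It was lower in all 5 pairs after normalisation, by 0.19 to 1.36 on the log2 scale, with the largest difference in the 10T1/2 pair at 0 hr, where both arrays were under the filter level. The smallest was in 3T3-L1 at 0 hr, experiment B, where both arrays read 5.5, also under the filter level. There the difference arose only with normalisation. The mean of -0.75 ± 0.18 (SE, 5 pairs) did not pass (limma, adjusted p = 0.0946).

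Aldh1a7, a rodent paralog of Aldh1a1 that is known to have little activity on retinaldehyde, had signals of 777.3, 11.2, 1759.5, 91.8 and 82.3 on the arrays labelled si-Setdb1, against 728.7, 10.3, 1663.7, 25.9 and 13.4 on si-Ctr. It was higher in 3T3-L1 at 0 hr, by 1.78 and 2.72 on the log2 scale in experiments A and B, and near 0 (0.084 to 0.12) in the other 3 pairs. The mean over 5 pairs, 0.96 ± 0.45 (SE), did not pass (limma, adjusted p = 0.270). Aldh1a1 and Aldh1a7 are close paralogs, and whether each probe set reads only 1 of the transcripts was not tested.

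Crabp2, which carries retinoic acid to its nuclear receptors, was near the filter level, at or above it on 9 arrays and under it on 3. Its signals on the arrays labelled si-Setdb1 were 7.7, 25.9, 5, 10.3 and 13.2, against 21.5, 49.9, 2.6, 20.7 and 19.4 on si-Ctr. It was lower in 4 pairs and higher in 3T3-L1 at 36 hr, where both arrays were under the filter level. The mean of -0.64 ± 0.31 (SE, 5 pairs) did not pass (limma, adjusted p = 0.280).

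With the 2 arrays against 2 of 3T3-L1 at 0 hr alone, none of the 5 genes passed, beside 0.0161% of all genes (2 genes, with 674 at an unadjusted p under 0.05). Aldh1a7 differed most there, by 2.25 ± 0.47 (SE, limma, adjusted p = 0.778), and was higher on both arrays labelled si-Setdb1 (91.8 and 82.3) than on both of si-Ctr (25.9 and 13.4). Adh7 differed by -1.20 ± 0.25 and Adh1 by 0.87 ± 0.30 (SE).

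Whether the difference depended on the line or on the medium was tested with interaction terms. None of the 5 genes passed, beside 0% of all genes in both terms, with 1030 genes at an unadjusted p under 0.05 for the line and 888 for the medium. Aldh1a7 had the largest estimates: the difference in 10T1/2 minus that in 3T3-L1 was -1.43 ± 0.77 (SE, limma, adjusted p = 0.712), and the difference after dexamethasone minus that at 0 hr was -1.45 ± 0.77 (limma, adjusted p = 0.713). For Adh1 both terms were 0.11, with an SE of 0.19 for the line and 0.18 for the medium. For Adh7 they were -0.22 ± 0.22 for the line and -0.26 ± 0.20 for the medium.

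Fat cell markers were higher on the same arrays on average over the pairs. Their summed signal was 1265.8 to 18005.6 on the arrays labelled si-Setdb1 and 496.4 to 4275.3 on si-Ctr, so the ranges overlapped. Lpl alone read 2562.2 to 3239.2 on si-Ctr of 3T3-L1, against 92.2 and 29.5 on si-Ctr of 10T1/2. All 7 tested markers had positive differences and 1 of them rose, Cebpa, an adipogenic transcription factor, by 2.43 ± 0.28 (SE, limma, adjusted p = 0.0383). Cidec, Lep and Cfd were under the filter on average. After the medium, Cidec read 192.9 and 174.5 on the arrays labelled si-Setdb1 of 10T1/2 and 3T3-L1, against 4.2 and 9 on si-Ctr. In the same order Cfd read 255.3 and 167 against 10.2 and 5.9, and Lep read 0.5 and 2.6 against 1.4 and 2.4. Cartilage and bone markers summed to 23.4 to 867.1 on the arrays labelled si-Setdb1 and 16.9 to 2833.7 on si-Ctr. In 10T1/2 at 48 hr and 0 hr, Col2a1, the main cartilage collagen, read 274.5 and 852.4 on the arrays labelled si-Setdb1 against 2203.1 and 2796.9 on si-Ctr, and Acan, the cartilage proteoglycan aggrecan, read 9 and 7.2 against 32.4 and 32. Of the 2 tested cartilage and bone markers 0 had a positive difference over the 5 pairs, and Ibsp was under the filter. The part of either marker set in the Adh1 and Adh7 differences was not tested.

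Aldh1a1 and Aldh1a7 were among the genes that rose most after dexamethasone medium, by 26.7-fold and 41.6-fold, and Adh1 rose 2.90-fold. These 3 of the 5 tested genes passed, beside 0.766% of all genes (0.5% in this direction), and nothing is read from that share. The medium and the hours in it change together, and the late time is 48 hr in 10T1/2 and 36 hr in 3T3-L1.

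Aldh1a1 had signals of 56 and 110.2 after the medium in 10T1/2 (labelled si-Setdb1 and si-Ctr) and of 256.2 and 497.3 in 3T3-L1, against 0.6, 2.5, 13 and 17.7 at 0 hr in the same order. The 2 sets did not overlap, and the share of all genes with such a gap was not counted. The difference of 4.74 ± 0.22 (SE, 4 pairs, limma, adjusted p = 0.00629) was the 5th largest rise of the fit. By pair it was 5.35, 4.91, 4.08 and 4.62. Aldh1a1 was brightest on the arrays after the medium, and these signals helped its average pass the filter. The filter was thus not independent of this contrast for Aldh1a1, and its p and rank here are a description only.

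Aldh1a7 had signals of 777.3 and 728.7 after the medium in 10T1/2 and of 1759.5 and 1663.7 in 3T3-L1, against 11.2, 10.3, 91.8 and 25.9 at 0 hr. After the medium the array labelled si-Setdb1 and the si-Ctr array of each line were close, although they stood apart in 3T3-L1 at 0 hr. The rise was 54.3-fold and 55.6-fold in 10T1/2, and 17.5-fold on the 3T3-L1 arrays labelled si-Setdb1 and 56.6-fold on si-Ctr. The mean of 5.38 ± 0.33 (SE, 4 pairs, limma, adjusted p = 0.0131) was the 3rd largest rise of the fit.

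Adh1 had signals of 773.4, 362.7, 746.2 and 369.6 after the medium against 212.8, 105.9, 264.5 and 167.2 at 0 hr. The difference was 1.54 ± 0.14 (SE, 4 pairs, limma, adjusted p = 0.0352), with 1.81, 1.72, 1.45 and 1.16 by pair. Its highest levels were thus on the 2 arrays labelled si-Setdb1 after the medium, and its si-Ctr levels after the medium were above every level at 0 hr. Adh7 did not pass, at -0.16 ± 0.13 (SE, limma, adjusted p = 0.506), and its second probe set gave 0.13.

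Crabp2 read 7.7, 21.5, 5 and 2.6 after the medium and 25.9, 49.9, 10.3 and 20.7 at 0 hr. It was lower in all 4 pairs, at -1.59 ± 0.30 (SE), but did not pass (limma, adjusted p = 0.0967). It passed with a pseudocount of 8 (-1.02, limma, adjusted p = 0.0466) and with an eBayes trend (-1.59, adjusted p = 0.0487).

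The dexamethasone calls changed when a pair was left out. Without the 3T3-L1 si-Ctr pair none of the 3 genes passed, and Aldh1a1 had an adjusted p (limma) of 0.0861 and Aldh1a7 of 0.113. Without either 10T1/2 pair only Aldh1a1 passed. Adh1 had an adjusted p of 0.0943 to 0.140 over the 4 fits. With all pairs but without a filter none of the 3 genes passed (limma, adjusted p = 0.0772 for Aldh1a1, 0.109 for Aldh1a7 and 0.171 for Adh1). Adh1 did not pass with the mean of the probe sets of each gene either (limma, adjusted p = 0.0509). Without 1 pair, differences stayed at 4.54 to 4.96 for Aldh1a1, 5.23 to 5.79 for Aldh1a7 and 1.45 to 1.66 for Adh1.

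**Figure D3:**
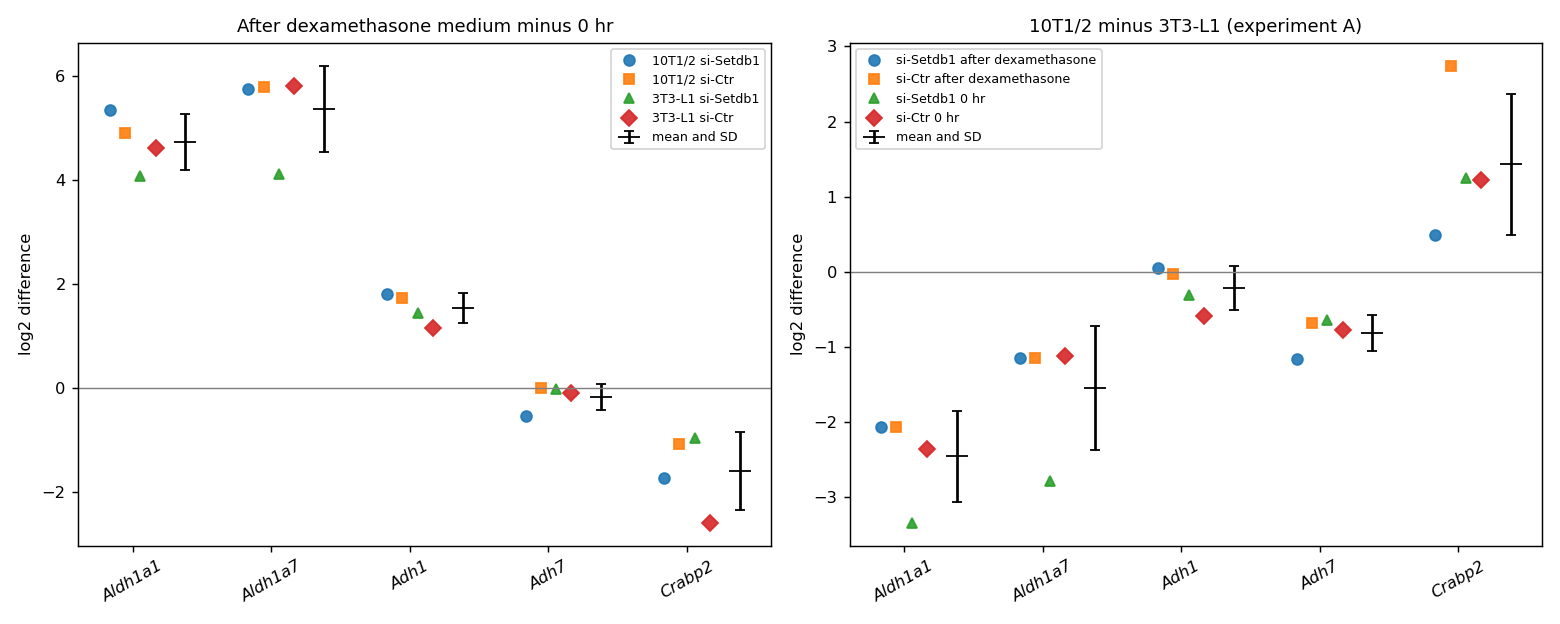
Log2 difference by pair (points) with the mean and SD (bar) for the 5 tested retinoid genes, after dexamethasone medium minus 0 hr (left) and 10T1/2 minus 3T3-L1 of experiment A (right). Aldh1a1 lies between 4.08 and 5.35 and Aldh1a7 between 4.13 and 5.82 on the left, and both lie below 0 in all 4 pairs on the right, where Crabp2 lies above 0.

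Fat cell markers were also high after the medium, with a summed signal of 2698.5 to 18005.6 against 496.4 to 8492.6 at 0 hr. All 7 tested markers had positive differences and 1 rose, Fabp4, a fatty acid carrier of fat cells, by 4.16 ± 0.43 (SE, limma, adjusted p = 0.0389). Their part in the Aldh1a1, Aldh1a7 and Adh1 differences was not tested.

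Of the 5 tested genes 4 passed between the lines, beside 28.9% of all genes (14.2% higher and 14.7% lower). Aldh1a1 was 5.49-fold lower in 10T1/2 (-2.46 ± 0.25, SE, 4 pairs, limma, adjusted p = 0.00433), with signals of 56, 110.2, 0.6 and 2.5 in 10T1/2 against 256.2, 497.3, 13 and 17.7 in 3T3-L1, experiment A. Aldh1a7 was 2.93-fold lower (-1.55 ± 0.33, limma, adjusted p = 0.0263) and Adh7 was 1.76-fold lower (-0.81 ± 0.12, limma, adjusted p = 0.0110). For Adh7 the second probe set gave -0.66 ± 0.15 and did not pass in the fit of all probe sets (limma, adjusted p = 0.0909).

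Crabp2 was higher in 10T1/2, by 2.69-fold (1.43 ± 0.37, SE, limma, adjusted p = 0.0454). Its difference by pair was 0.50 and 2.75 after the medium and 1.25 and 1.22 at 0 hr (arrays labelled si-Setdb1, then si-Ctr). Adh1 did not pass (-0.22 ± 0.14, limma, adjusted p = 0.292). Without 1 of the 4 pairs, the adjusted p of Crabp2 was 0.0485 to 0.119 and that of Aldh1a7 was 0.0166 to 0.0683, while Aldh1a1 and Adh7 passed in all 4 fits. Each line is 1 culture line, so line and culture cannot be told apart at either stage, nor can the late time after the medium. Experiment B of 3T3-L1 was not in this comparison. At 0 hr its si-Ctr array read 5.5, 13.4, 301.1 and 19.4 for Aldh1a1, Aldh1a7, Adh7 and Crabp2. In that order si-Ctr of experiment A read 17.7, 25.9, 411.6 and 20.7, and si-Ctr of 10T1/2 read 2.5, 10.3, 238.6 and 49.9. The summed signal of cartilage and bone markers was 289.3 to 2833.7 in 10T1/2 and 16.9 to 27.9 in 3T3-L1, experiment A. Its part in the line differences was not tested.

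For the arrays labelled si-Mbd1 and si-Mcaf1 there was 1 array each, with no replicate check and no test. On the array labelled si-Mbd1, Crabp2 was past a 2-fold difference from si-Ctr of experiment B (-1.28, signals of 6.7 and 19.4), beside 3.73% of all genes (1.56% lower). The signal of 6.7 was under the filter level, and Crabp2 was not past 2-fold with a pseudocount of 8 (-0.76). On the array labelled si-Mcaf1, Aldh1a1 was past a 2-fold difference (1.76, signals of 22.1 and 5.5), beside 4.44% of all genes (2.77% higher). The si-Ctr signal of 5.5 was under the filter level, and the si-Ctr array of experiment A read 17.7. With a pseudocount of 8 the difference was 0.99, just short of 2-fold. Adh1 differed by 0.51 on the array labelled si-Mbd1 and by -0.59 on that labelled si-Mcaf1, and Adh7 by -0.24 and 0.21. Aldh1a7 read 11.8 and 14.1 on these arrays against 13.4 on si-Ctr of experiment B, unlike the 82.3 of the array labelled si-Setdb1 of the same experiment.

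The 4 dim genes were under the filter level on at least 10 of the 12 arrays each, read from their brightest probe set. Rbp4, the carrier of retinol in blood, read 19.1 on the array labelled si-Setdb1 of 10T1/2 at 48 hr and 13.2 on that of 3T3-L1 at 0 hr in experiment B, and 0.4 to 6.8 on the other 10 arrays. Crabp1, which binds retinoic acid in the cytoplasm, read 10.1 at most, on the array labelled si-Setdb1 of 10T1/2 at 0 hr. Aldh1a2, the retinaldehyde dehydrogenase of the early embryo, read 0.3 to 4.9 and was under the filter level on all 12 arrays.

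Aldh1a3, the retinaldehyde dehydrogenase best known from the developing eye and nose, has 3 probe sets. Its brightest read 15.3 on the array labelled si-Setdb1 of 3T3-L1 at 0 hr in experiment A, 12.2 on the array labelled si-Mcaf1 and 0.8 to 5.7 elsewhere. The others read 0.8 to 8.1 and 0.3 to 6.9. Their mean differences over the 5 pairs were -0.061, 0.58 and 0.41, so the probe sets disagreed and no direction is given.

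Other genes of the pathway were read from 5 lists, which were chosen with earlier results of these data known. Among retinoid uptake, carrier and storage genes 3 of 15 measured were tested and none passed on the arrays labelled si-Setdb1, with a median difference of 0.83 against 0.0021 over all genes. Among them were Dgat1, which esterifies diacylglycerol and retinol (1.03, limma, adjusted p = 0.0979), and Fabp5, a carrier that delivers retinoic acid to Ppard (0.79, limma, adjusted p = 0.100). Among the other retinol and retinal oxidoreductases none of 13 tested passed, 8 were above 0 and the median was 0.15.

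Of the other aldehyde dehydrogenases none of 13 passed, 7 were above 0 and the median was 0.017. Of the retinoic acid breakdown enzymes and receptors none of 13 passed, 9 were above 0 and the median was 0.20, with the lowest p for Rxra, the shared partner of the retinoic acid receptors (0.58, limma, adjusted p = 0.0693). Of the known retinoic acid targets 1 of 10 rose (beside 0.443% of all genes) and none fell (beside 0.653%), 5 were above 0 and the median was 0.060. Over all genes tested 50.3% were above 0.

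The target that rose was Rarres2, which encodes the secreted protein chemerin. Its signals were 616.5, 90.8, 470.2, 395.4 and 271.7 on the arrays labelled si-Setdb1 against 124.3, 29.2, 141.8, 183.9 and 159.4 on si-Ctr. Each array labelled si-Setdb1 was above its own si-Ctr array. The difference was 1.49 ± 0.20 (SE, 5 pairs, limma, adjusted p = 0.0427), and without each pair in turn the adjusted p was 0.0954 to 0.135.

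After dexamethasone medium no gene of the 5 lists passed. Differences were above 0 for 2 of 3 uptake, carrier and storage genes (median 0.63), 11 of 13 other aldehyde dehydrogenases (median 0.14), 9 of 13 breakdown enzymes and receptors (median 0.050), 5 of 13 other oxidoreductases (median -0.021) and 4 of 10 targets (median -0.028), against 48.8% of all genes.

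**Figure D4:**
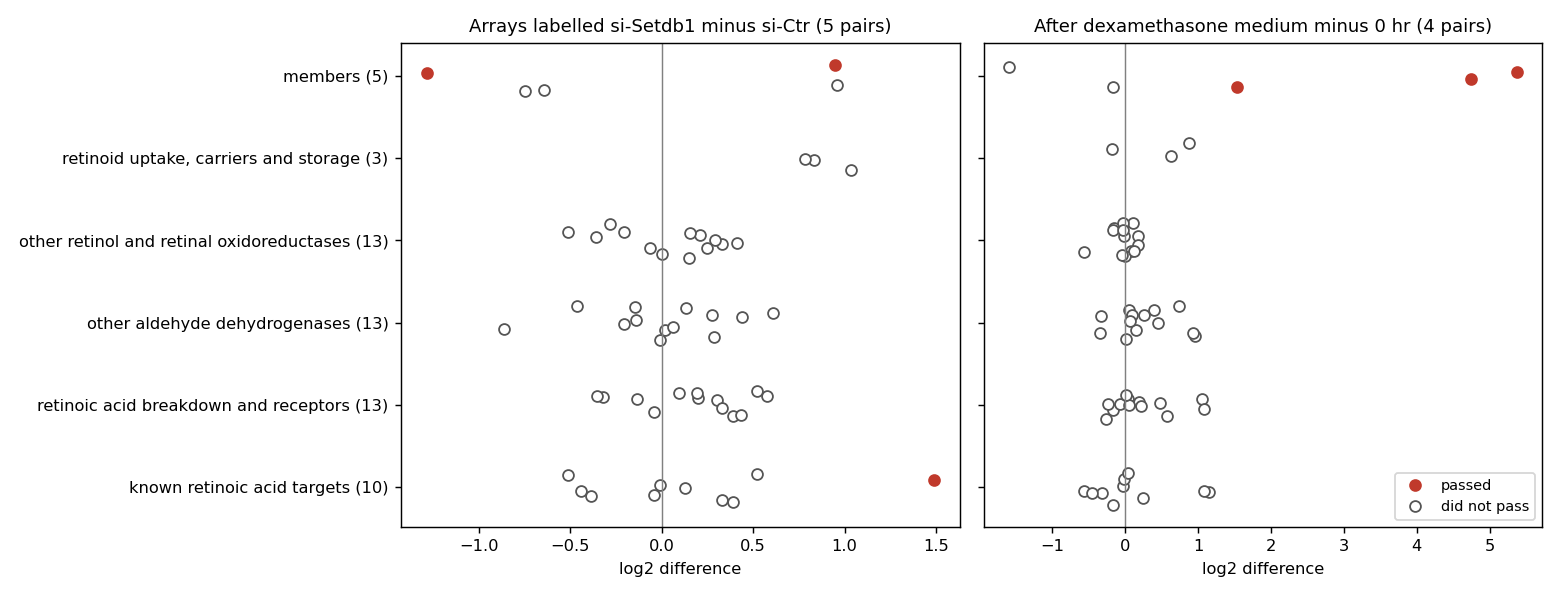
Log2 differences of the 5 tested retinoid genes (top row) and of the tested genes of the 5 lists, for arrays labelled si-Setdb1 minus si-Ctr (left) and after dexamethasone medium minus 0 hr (right); filled points passed and the number of genes is in brackets. Rarres2 at 1.49 is the filled point of the lists on the left, and no list gene passed on the right.

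Between the lines, with experiment A alone for 3T3-L1, 28.9% of all genes passed (14.2% higher and 14.7% lower). Of the 3 tested uptake and carrier genes 2 fell, among them Fabp5 at -1.31 ± 0.15 (SE, limma, adjusted p = 0.00614). Fabp5 had signals of 503.7 to 1647.2 in 10T1/2 against 1231.9 to 2844.6 in 3T3-L1, experiment A. In experiment B of 3T3-L1 at 0 hr it read 518.3 on si-Ctr and 1071 on the array labelled si-Setdb1, against 503.7 and 577.7 in 10T1/2 at 0 hr. The oxidoreductases divided. Dhrs3, which reduces retinaldehyde back to retinol, was higher in 10T1/2 (1.04), as was Dhrs4 (0.45). In experiment B of 3T3-L1, Dhrs4 read 155.1 on si-Ctr and 114.6 on the array labelled si-Setdb1, against 160.2 and 148.7 in 10T1/2 at 0 hr. The aldo-keto reductases Akr1b3 (-1.03) and Akr1b8 were lower. Akr1b8 read 212.2 to 346 in 10T1/2 against 1113.5 to 1284.2 in 3T3-L1, experiment A. In experiment B it read 867.5 on si-Ctr and 924.1 on the array labelled si-Setdb1. Of the other aldehyde dehydrogenases 5 of 13 fell, namely Aldh1l2 (-1.85), Aldh3b1 (-1.30), Aldh7a1 (-1.12, but -0.15 as the mean of its probe sets), Aldh3a2 (-0.65) and Aldh18a1 (-0.58), and Aldh9a1 rose (0.71). Without 1 of the 4 pairs the adjusted p (limma) reached 0.0545 for Aldh18a1 and 0.102 for Dhrs4.

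Among breakdown enzymes and receptors 3 of 13 rose between the lines and 1 fell, beside 14.2% of all genes higher and 14.7% lower. Cyp26b1, which breaks down retinoic acid, was higher in 10T1/2 by 0.81 ± 0.22 (SE, limma, adjusted p = 0.0476). The coactivator Ncoa2 was higher by 0.56 (0.058 as the mean of its probe sets). Rarg, a retinoic acid receptor, was higher by 0.48 ± 0.10, with signals of 112.6 to 127.3 against 76.7 to 90.5 in 3T3-L1, experiment A. In experiment B of 3T3-L1, Rarg read 250.5 on si-Ctr and 202 on the array labelled si-Setdb1. Both were above every 10T1/2 array, so no direction between the lines is given for Rarg. Of the known targets 3 of 10 rose against experiment A, beside the same shares (Cyp26b1, Dhrs3 and Rarg, which other lists also hold). In that comparison 4 fell, among them Hic1 (-2.45), Meis1 (-1.39) and Meis2 (-0.51). Without 1 of the 4 pairs the adjusted p (limma) reached 0.103 for Cyp26b1, 0.0837 for Rarg, 0.0924 for Ncoa2 and 0.0795 for Meis2.

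Over the 12 arrays the retinoid genes did not vary as 1 set. Aldh1a7 correlated with Aldh1a1 at r = 0.876 and with Adh1 at r = 0.896, while Adh1 and Adh7 correlated at r = -0.566 and Adh7 and Crabp2 at r = 0.0093. These are descriptions over 12 arrays that share lines, times and experiments. The genes most like Aldh1a1 over the 12 arrays were Slc10a6 (r = 0.969), Fkbp5 (r = 0.961), a well known glucocorticoid-induced gene, and the metallothionein Mt2 (r = 0.947). For Aldh1a7 they were Cpt2 (r = 0.968), Zbtb16 (r = 0.964) and Decr1 (r = 0.959), and for Adh1 Zfp219 (r = 0.975), Timm10 (r = 0.954) and Natd1 (r = 0.948). Adh7 was most like Wipf1 (r = 0.963), Zfp182 (r = 0.947) and Ppp2r5c (r = 0.939), and Crabp2 was most like Srpk2 (r = 0.908), Letm2 (r = 0.905) and Asic1 (r = 0.893).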

How the data were processed

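Biotin-labelled cRNA of total RNA was hybridised to 12 Affymetrix arrays, per the labels' protocols. The deposited values are linear intensities, which the authors scaled: they show a trimmed mean (2% off each end) of 99.4 to 99.5 on every array. For software, background correction and detection calls: not given in the sources used here. The members and gene lists were chosen with earlier results of these data known. Of 45101 probe sets 64 controls were left out. Symbols were updated through RefSeq, where 33189 of the 38068 probe sets with 1 symbol matched a current symbol and 2004 a synonym. A gene was read from its brightest probe set on average. Array log2 medians differed by up to 0.648, so log2(intensity + 0.8) was quantile normalised, and genes under the 40th percentile were left out. Linear models (lmFit, then eBayes with no trend) came from limma 3.58.1, run under R 4.3.3, and had the pair as a block except in the comparison of 2 arrays with 2. The scripts were tested on simulated data. Named genes were all members, the siRNA targets, list genes that passed or, where none did, those with small p-values, and for each tested member the 3 genes most correlated with it, leaving out predicted genes; not every gene the rule selects is reported here. The number of arrays limits the precision. The experiment letters mark shared experiments: over genes, the A to B difference in arrays labelled si-Setdb1 and in si-Ctr correlated at r = 0.427. Alternatives were other normalisations, pseudocounts, filters, probe set rules and variance models, and leaving out each pair or array.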

Additional observations from a re-analysis of the deposited data

How the results depend on the processing

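Differences of Adh1 and Adh7 between arrays labelled si-Setdb1 and si-Ctr kept their direction under all alternatives run, at 0.89 to 1.02 over 13 for Adh1 and -1.38 to -1.19 over 14 for Adh7, and each passed in 6. Genes called numbered 136, but 367 with a pseudocount of 8, 843 with the stricter filter, 880 with an eBayes trend, 2 with the mean of the probe sets, 0 without a filter, and 0 without each pair. Members called were 2, and 0 without a filter, with the mean of the probe sets, or without any pair. In the comparison of 2 arrays with 2, 2 genes passed, but 38 with array medians subtracted, 1 with the deposited scaling, 0 without a filter, 1 with the mean of the probe sets, 4 with a trend, and 1 with the experiment as a replicate block. Leaving out 1 array gave 0 to 2 genes. Aldh1a7 passed there with array medians subtracted (adjusted p = 0.0449), 1 member against 0. The line interaction had 0 genes, 6 with the stricter filter and 18 with a trend. For dexamethasone 95 genes passed, but 251 with a pseudocount of 8, 462 with the stricter filter, 574 with a trend, 19 with the mean of the probe sets, 0 without a filter, and 1, 4, 14 and 12 without 1 pair (3T3-L1 si-Ctr, 3T3-L1 si-Setdb1, 10T1/2 si-Ctr and 10T1/2 si-Setdb1). Members called were 3, 0 without a filter, and 0 to 2 without 1 pair. Adh1 passed in 5 of 11 alternatives there, and Crabp2, which had not passed, did so in 2 of 10 (a pseudocount of 8 and a trend). Between the lines 3584 genes passed, but 1618 without a filter and 1766, 1854, 1883 and 2332 without 1 pair. Members called there were 4, and 2 without a filter, with the stricter filter, and at the lowest without 1 pair (2 to 3). Past 2-fold were 463 genes on the array labelled si-Mbd1 (99 with a pseudocount of 8, 3502 without a filter, 32 with the stricter filter) and 551 on that labelled si-Mcaf1 (207, 3484 and 85). Signs turned for Aldh1a1 in the comparison of 2 with 2 (0.71 without si-Ctr of experiment A and 0.62 without si-Setdb1 of B, and -1.26 without si-Ctr of B). They turned also for the line term of Adh1 (-0.0049 without 3T3-L1 0 hr A) and Adh7 (0.048 without 10T1/2 48 hr), the medium term of Adh1 (-0.0067 without 3T3-L1 0 hr A) and Crabp2 (-0.68 without 3T3-L1 36 hr A), and Adh7 after dexamethasone (0.13 with its second probe set). None of these passed, and the cause was not tested. Background and detection calls were not in the files used here, so the depth of dim genes is limited.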
